A study of Mus musculus with 21 samples.

Results

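Cadherins, the adhesion protein Epcam, the epithelial factor Grhl2 and the transcription factors of epithelial-mesenchymal transition (EMT) were followed through chemical reprogramming of mouse fibroblasts. The 10 genes were chosen by name, with earlier results of these data known: Cdh1, Epcam and Grhl2 as epithelial genes, Cdh2 as the mesenchymal cadherin, and Snai1, Snai2, Zeb1, Zeb2, Twist1 and Twist2 as EMT factors. Shares of all genes are given beside their counts as a description only. Each gene had 1 row in each of 21 libraries, out of 43436 gene IDs, and all 10 were among the 16650 genes that passed the filter on low values. Levels are in FPKM, which divides the fragments of a gene by its length and by the size of the library, a per-length scale on which levels of different genes can be set side by side. Changes are differences of log2(FPKM + 1), which understate the change of a gene near 0 FPKM.

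The groups were embryonic fibroblasts (MEF, 2 libraries, E13.5 embryos), cells on the way at day 12, day 20, day 26 and day 28 (1 library each) and at day 16 (2 libraries), and chemically induced pluripotent stem cells (CiPSC, 7 lines, 1 library each). All of these carried the strain C57BL/6J-Tg(GOFGFP)11Imeg/RbrcxICR. Embryonic stem cells (ESC, E3.5 embryos) gave 1 library of that strain and 1 of C57BL/6 (B6)N. The extraembryonic endoderm (XEN) libraries were wild-type ICR. CeXEN cells (2 libraries) were derived from E3.5 embryos in stage 1 medium with VC6TFAE and 20 ng/ml bFGF. eXEN (2 libraries) is a single established line, kept in stage 1 medium with VC6TF and 20 ng/ml bFGF (replicate 1) or in traditional XEN medium (replicate 2), so its replicates differ in medium. Strain and cell type cannot be told apart where XEN cells are compared with other groups. The spread between the eXEN libraries holds a difference of medium, and that between the ESC libraries a difference of strain. Both enter every comparison of groups, since all groups share one fit. For MEF, day 16 and CeXEN nothing in the labels tells if replicates came from different cultures, so their spread may be technical. The p-values measure only the spread between these samples. Each of the 7 CiPSC lines are 1 library each, and comparisons that share MEF, eXEN, day 16 or CiPSC libraries are not independent of each other.

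E-cadherin (Cdh1) joins epithelial cells through its extracellular domain and binds catenins inside the cell, and Epcam is another epithelial adhesion protein. Snail, Zeb and Twist proteins are DNA-binding repressors and activators that lower E-cadherin and other epithelial genes in EMT, when epithelial cells become migratory, and Grhl2 is a transcription factor that maintains epithelial genes and opposes Zeb1. Fibroblasts are mesenchymal and use N-cadherin (Cdh2), pluripotent mouse cells form E-cadherin-bearing colonies, and the reverse transition (MET) is a known early step when fibroblasts are reprogrammed with transcription factors. Snail and Zeb proteins bind E-boxes of the sequence CAGGTG, which reads CACCTG on the other strand.

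Promoters of Cdh2 and Zeb1 were not looked up. RefSeq promoters on GRCm38.p6, the build of the files, were found for 5 of the 8 genes looked up (Epcam, Snai1, Zeb2, Twist1 and Twist2). Epcam and Snai1 are shown because they were the 2 of these whose promoters held such an E-box, and because both were high in CeXEN cells and in the cells on the way. The 250 bases before the start site are given 5′ to 3′ on the plus strand, at chr17:87635729-87635978 for Epcam and chr2:167537945-167538194 for Snai1, with CAGGTG or CACCTG in capitals.
Epcam: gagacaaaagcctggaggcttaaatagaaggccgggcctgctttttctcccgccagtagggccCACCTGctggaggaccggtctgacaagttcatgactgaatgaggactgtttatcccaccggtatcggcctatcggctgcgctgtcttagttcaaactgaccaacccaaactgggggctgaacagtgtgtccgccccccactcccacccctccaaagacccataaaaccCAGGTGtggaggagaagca
Snai1: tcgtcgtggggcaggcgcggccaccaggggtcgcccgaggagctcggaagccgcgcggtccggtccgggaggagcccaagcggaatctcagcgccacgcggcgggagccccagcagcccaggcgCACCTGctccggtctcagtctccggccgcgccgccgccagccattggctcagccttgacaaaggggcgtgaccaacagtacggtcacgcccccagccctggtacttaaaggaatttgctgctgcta
Epcam held 2 E-boxes, starting 187 and 19 bases before the start site, and Snai1 held 1, starting 126 bases before it. Over windows of 300 bases that also take in 50 bases after the start, 20.2% of 32851 promoters held at least 1 CAGGTG or CACCTG on either strand and 2.88% held 2 or more. A match describes these letters and shows no binding.

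The labels were checked against markers. All 10 fibroblast markers stood at 1 FPKM or more in both MEF libraries, all 10 XEN and primitive endoderm markers did so in every library of day 12 to day 28, CeXEN and eXEN, and all 8 pluripotency markers in every ESC and CiPSC library. The lists did not keep to these groups. At 1 FPKM or more stood all 10 fibroblast markers at day 12, and 5 to 6 of 10 XEN markers in MEF (sums 1729 and 2859 FPKM). So did 7 of 8 pluripotency markers at day 26 (sum 632 FPKM) and 8 at day 28 (345 FPKM). The sum of the fibroblast markers was 2831 and 10560 FPKM in MEF, 764 FPKM at day 12, 216 and 409 FPKM at day 16, 70.1 FPKM at day 20, 112 FPKM at day 26 and 10.1 FPKM at day 28. By their MEF means, Col1a1 (3063 FPKM), Col1a2 (1838 FPKM) and Col3a1 (846 FPKM) were its largest parts. Not all of these markers fell. At day 12 Thy1 (310 FPKM, MEF mean 306 FPKM), Dcn (44.2 and 32.5 FPKM) and Lum (13.3 and 6.89 FPKM) were not below the MEF mean, and the other fibroblast markers were. Of 7 macrophage and blood markers, 6 stood at 1 FPKM or more in MEF, with a sum of 123 and 42.5 FPKM, against 2.27 to 36.1 FPKM in the other libraries. In bulk RNA, fewer cells of a type and less RNA per cell cannot be told apart. Read counts are not known, the FPKM of a library summed to 543198 to 864945, and the quantifier's status was LOWDATA for 446 rows in each of day 12, day 16 replicate 1, day 20 and day 26 and for none in the other libraries, while all 10 genes had the status OK.

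**Figure D1:**
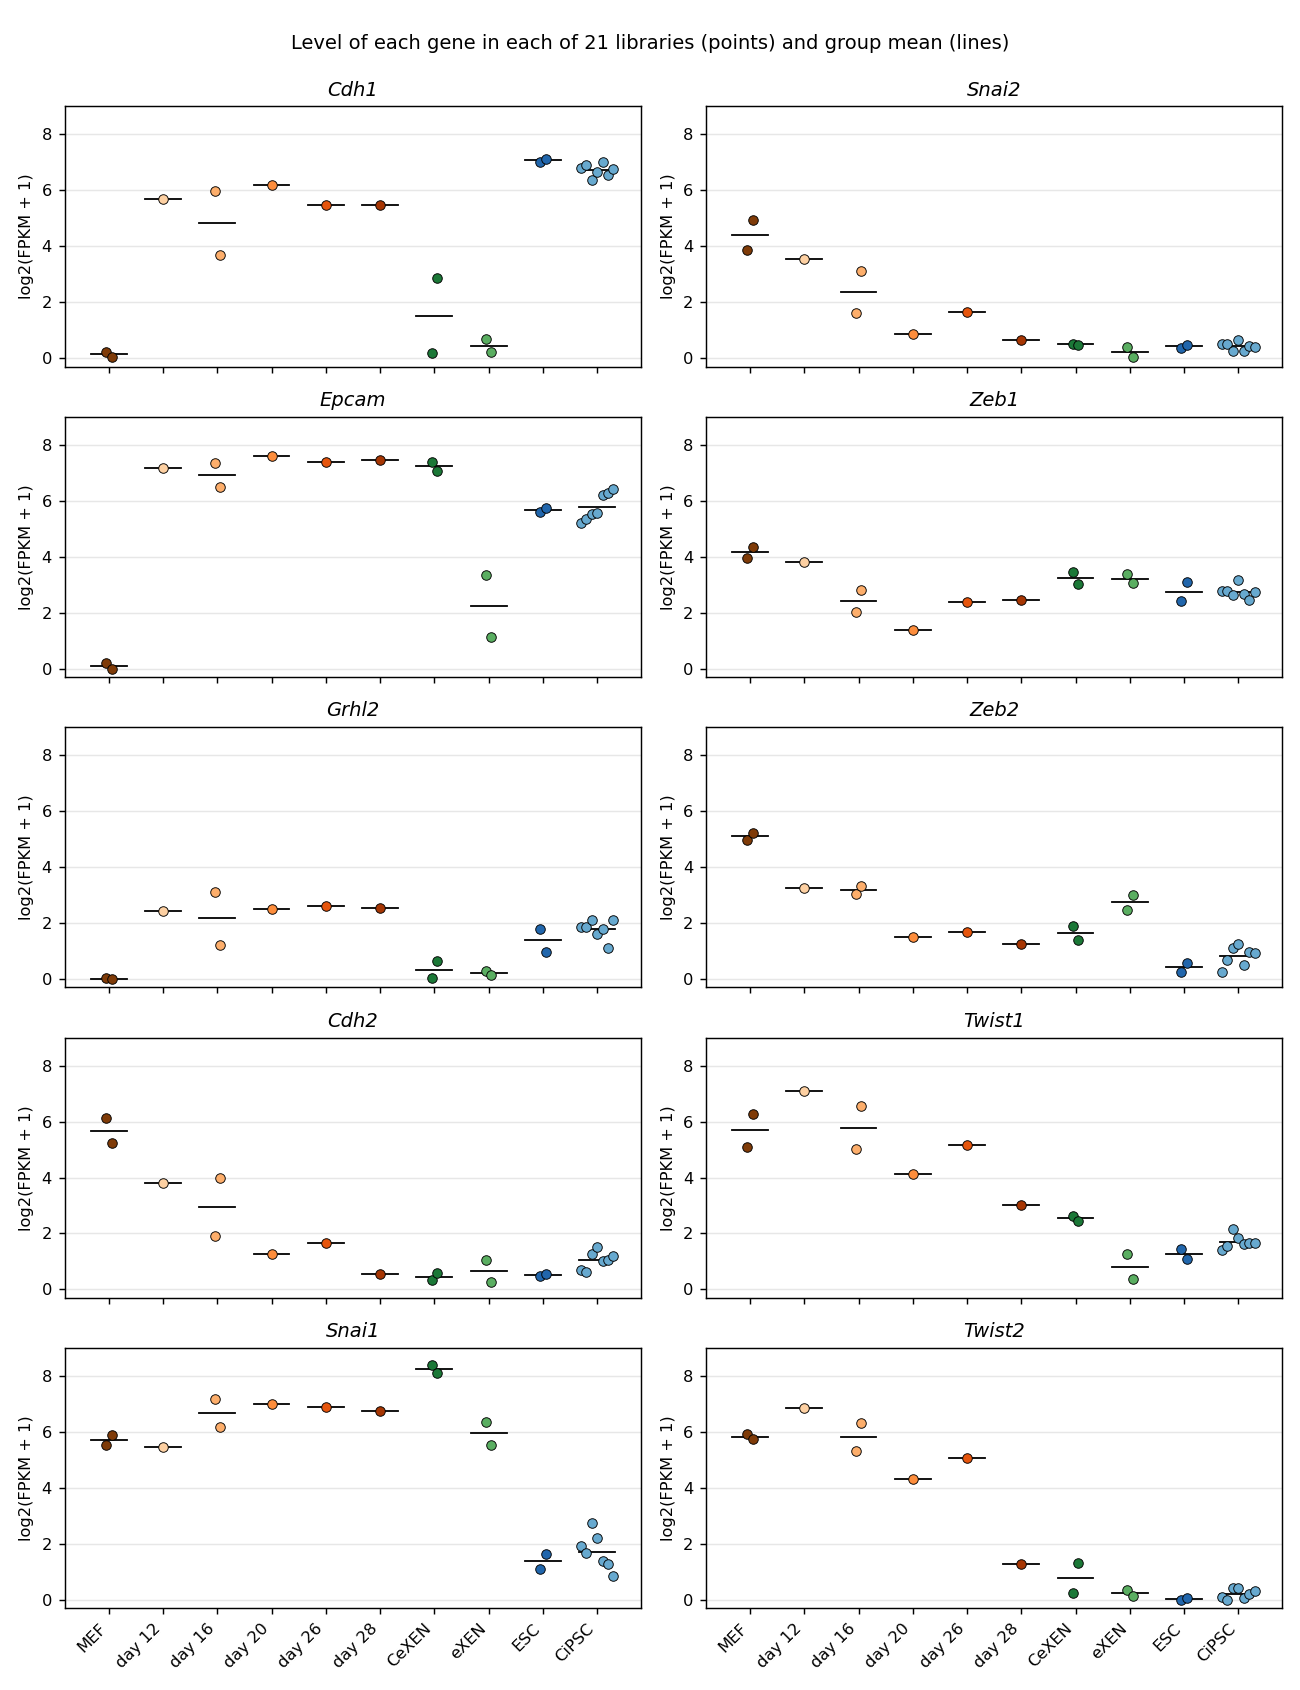
Level of each of the 10 genes as log2(FPKM + 1) on the vertical axis, by group on the horizontal axis; points are libraries and lines are group means. Cdh1 and Epcam are near 0 in MEF and high from day 12, Cdh1 is low in both XEN groups, and Snai1 stays high in every group except ESC and CiPSC.

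Day 16 against MEF asks what had changed in the cells on the way at the replicated time point. The 3 epithelial genes rose, Cdh2, Snai2, Zeb1 and Zeb2 fell, and Snai1, Twist1 and Twist2 did not pass the test. A gene passed when its adjusted p was below 0.05 and it changed by 1 or more on the log2 scale. Of the 10 genes 7 passed (20.7% of all genes tested), 3 as higher (13.3% of all genes) and 4 as lower (7.41%). The test was limma over all 21 libraries with Benjamini-Hochberg adjustment over all genes.

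For Cdh1 (ENSMUSG00000000303, mm10 chromosome 8, positions 106603351 to 106670246) the MEF levels were 0.166 and 0.032 FPKM, and those of day 16 replicates 1 and 2 were 62.5 and 11.8 FPKM. The groups did not overlap, and replicate 1 was far above replicate 2. The log2 change was 4.70 ± 0.70 (SE, adjusted p = 0.000184). Epcam (ENSMUSG00000045394, chromosome 17, positions 87635979 to 87651106) stood at 0.135 FPKM and was listed at 0 in MEF, and stood at 161 and 90.0 FPKM at day 16, a log2 change of 6.83 ± 0.56 (SE, adjusted p = 9.4e-07). Epcam therefore had the largest change of the 10 genes in this comparison. Grhl2 (ENSMUSG00000022286, chromosome 15, positions 37233036 to 37363569) was low throughout, at 0.0183 FPKM and 0 in MEF and 7.61 and 1.33 FPKM at day 16. Its log2 change was 2.15 ± 0.49 (SE, adjusted p = 0.00457), and without day 16 replicate 1 it was 1.21 (adjusted p = 0.0686).

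N-cadherin moved the other way. Cdh2 stood at 68.7 and 36.6 FPKM in MEF and 2.79 and 14.7 FPKM in day 16 replicates 1 and 2, a log2 change of -2.73 ± 0.52 (SE, adjusted p = 0.00133). The day 16 library with more Cdh1 was the one with less Cdh2. As a log2 ratio of Cdh1 to Cdh2, each taken as FPKM + 1, MEF stood at -5.90 and -5.19, day 16 replicate 1 at 4.06 and day 16 replicate 2 at -0.29.

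Among the EMT factors, Snai2 (Slug; ENSMUSG00000022676, chromosome 16, positions 14705852 to 14709395) stood at 13.4 and 29.3 FPKM in MEF and 2.07 and 7.77 FPKM at day 16. The zinc-finger homeobox repressor Zeb1 stood at 14.5 and 19.4 FPKM in MEF and 3.03 and 5.97 FPKM at day 16. Its relative Zeb2 (ENSMUSG00000026872, chromosome 2, positions 44983634 to 45117395) stood at 30.5 and 36.4 FPKM in MEF and 7.25 and 9.08 FPKM at day 16. These 3 genes did not overlap between the groups, which held for 56.9% of all genes tested. The log2 changes were -2.01 ± 0.40 for Snai2 (adjusted p = 0.00184), -1.75 ± 0.32 for Zeb1 (adjusted p = 0.000959) and -1.91 ± 0.33 for Zeb2 (SE, adjusted p = 0.000575). The fibroblast and macrophage marker sums were lower at day 16 as well (216 and 409 FPKM against 2831 and 10560 FPKM, and 11.5 and 5.75 FPKM against 123 and 42.5 FPKM), and their part in these changes was not tested. Of the fibroblast markers, Lum and Dcn overlapped between day 16 and MEF, and the others were lower at day 16. Zeb2 overlaps 2 detected genes on the opposite strand, the antisense gene Zeb2os, at 2.51 FPKM or less, and the misc_RNA gene Gm27761, at up to 31.6 FPKM, from which its reads cannot be told apart without strand. Grhl2 overlaps the antisense gene Gm16136, at up to 1.96 FPKM, in the same way.

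Snai1 (ENSMUSG00000042821, chromosome 2, positions 167538195 to 167542814) stood at 45.9 and 59.2 FPKM in MEF and 143 and 71.0 FPKM at day 16. Both day 16 libraries were above both MEF libraries, yet the change did not pass (0.94 ± 0.51 SE, adjusted p = 0.191). The basic helix-loop-helix factor Twist1 (ENSMUSG00000035799, chromosome 12, positions 33957671 to 33959817) stood at 33.4 and 76.3 FPKM in MEF and 31.3 and 92.9 FPKM in day 16 replicates 1 and 2. Its relative Twist2 (ENSMUSG00000007805, chromosome 1, positions 91801461 to 91848028) stood at 60.3 and 52.3 FPKM in MEF and 38.5 and 78.2 FPKM at day 16. For both Twist genes replicate 1 was below MEF and replicate 2 above, with fitted changes of 0.09 ± 0.46 and -0.03 ± 0.35 (SE). The sign for Twist1 turned negative under quantile normalization (-0.11) and median-of-ratios scaling (-0.24).

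With only the MEF and day 16 libraries in the fit, 0 of the 10 genes and 0 of all genes passed, with adjusted p = 0.0596 for Epcam and 0.0711 for Zeb2 as the lowest of the 7, so the calls use the spread of the other groups. Of all called genes 64.3% were higher, and 47% after quantile normalization, where the median gene moved from 0.215 to -0.02 on the log2 scale.

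**Figure D2:**
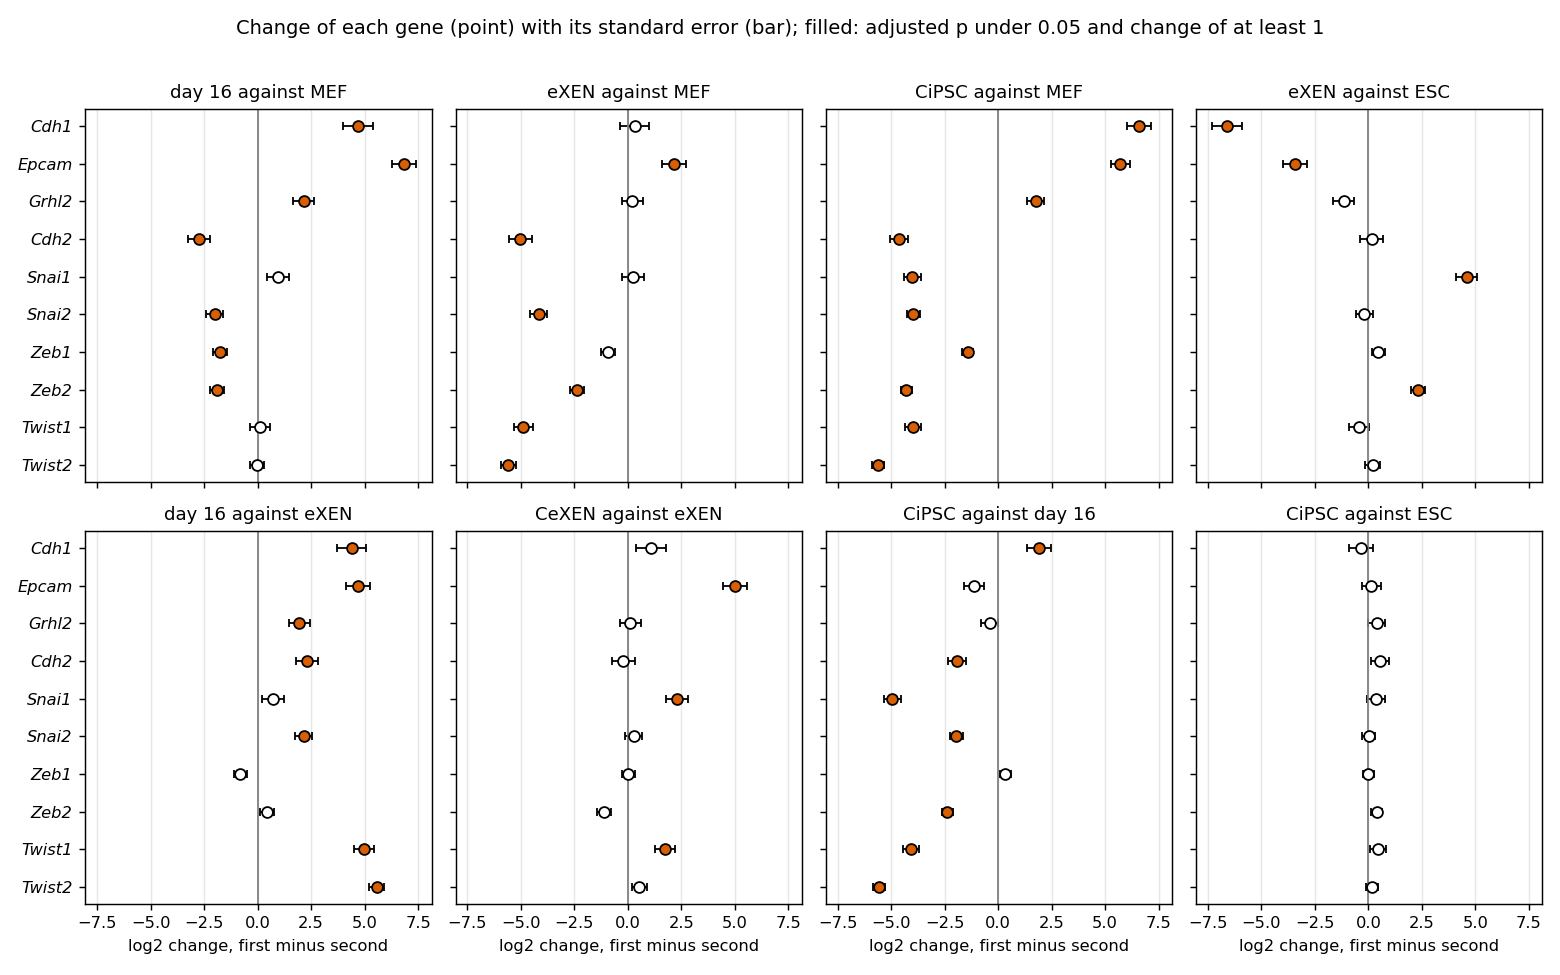
Change of each gene (vertical axis) as a log2 difference of the first group minus the second (horizontal axis) in 8 comparisons; points are the fitted changes, bars their standard errors, and filled points passed the test. All 10 genes passed in CiPSC against MEF and 0 in CiPSC against ESC.

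The time course held 6 libraries from day 12 to day 28. Epithelial genes were already high at day 12, while Cdh2, Snai2, Zeb1, Zeb2, Twist1 and Twist2 stood lower at day 20, day 26 and day 28 than at day 12. Day 16 replicate 2 held slightly more Cdh2 (14.7 FPKM) and Zeb2 (9.08 FPKM) than day 12. Cdh1 stood at 50.6 FPKM at day 12, 72.4 FPKM at day 20, 43.7 FPKM at day 26 and 43.8 FPKM at day 28. Epcam stood at 143, 191, 164 and 174 FPKM on the same days, and Grhl2 at 4.45, 4.70, 5.04 and 4.83 FPKM. Day 16 replicate 2 was the lowest of the 6 libraries for all 3 genes.

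Cdh2 stood at 12.97 FPKM at day 12, 1.39 FPKM at day 20, 2.16 FPKM at day 26 and 0.462 FPKM at day 28. Twist1 stood at 135, 16.3, 34.8 and 7.15 FPKM on these days, and Twist2 at 115, 19.1, 32.6 and 1.44 FPKM. Both Twist genes were thus higher at day 12 than in either MEF library, and day 26 was above day 20 for Cdh2 and both Twist genes. Snai2 stood at 10.5, 0.82, 2.13 and 0.555 FPKM, Zeb1 at 12.9, 1.57, 4.21 and 4.51 FPKM and Zeb2 at 8.57, 1.82, 2.21 and 1.40 FPKM. Day 20 held the lowest Zeb1 of all 21 libraries.

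Snai1 did not follow the other factors. It stood at 43.1 FPKM at day 12, 127 FPKM at day 20, 119 FPKM at day 26 and 107 FPKM at day 28, so the 5 libraries from day 16 to day 28 were above both MEF libraries while holding 11.8 to 72.4 FPKM of Cdh1. A linear trend on the day, fitted with limma to the 6 libraries, called 0 of the 10 genes and 0% of all genes at the threshold above. At an unadjusted p under 0.05, 5 of the 10 had a negative trend over 16 days, as did 11.8% of all genes: Twist2 (-4.17 ± 1.22 SE, adjusted p = 0.192), Twist1 (-3.07 ± 1.00), Cdh2 (-2.89 ± 0.91), Snai2 (-2.33 ± 0.84) and Zeb2 (-2.19 ± 0.52 SE, adjusted p = 0.176). The changes over 16 days for Cdh1, Epcam, Grhl2 and Snai1 were 0.28 ± 0.98, 0.45 ± 0.38, 0.32 ± 0.70 and 0.95 ± 0.59 (SE).

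eXEN against MEF shows the established XEN line beside the starting cells. Cdh2, Snai2, Zeb2 and both Twist genes fell and Epcam rose, Snai1 overlapped MEF, and Cdh1 was below 1 FPKM in both groups. In this comparison 6 of 10 genes passed (22.3% of all genes tested), 1 as higher (8.85%) and 5 as lower (2246 of 16650 genes). A fit of only these 2 groups called 4 of the 10.

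Cdh1 stood at 0.607 and 0.154 FPKM in eXEN replicates 1 and 2, with upper bounds of 0.896 and 0.375 FPKM from the quantifier, and the groups overlapped (0.31 ± 0.70 SE, adjusted p = 0.845). Grhl2 stood at 0.231 and 0.101 FPKM and did not pass (0.21 ± 0.49 SE, adjusted p = 0.86). Epcam stood at 9.18 FPKM in replicate 1, kept in the stage 1 medium, and 1.18 FPKM in replicate 2. Its log2 change from MEF was 2.15 ± 0.56 (SE, adjusted p = 0.00959), and without eXEN replicate 1 it was 1.04 (adjusted p = 0.152). Without MEF replicate 2 the adjusted p for Epcam was 0.057.

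Cdh2 stood at 1.08 and 0.193 FPKM in eXEN, a change of -5.02 ± 0.52 (adjusted p = 4.19e-06). Twist2 stood at 0.265 and 0.101 FPKM, the largest decrease of the 10 genes (-5.60 ± 0.35 SE, adjusted p = 3.81e-08). Twist1 (1.40 and 0.283 FPKM), Snai2 (0.329 and 0.0313 FPKM) and Zeb2 (4.58 and 7.05 FPKM) changed by -4.88, -4.16 and -2.36 on the log2 scale. Zeb1 stood at 9.38 and 7.32 FPKM, below both MEF libraries, with a change of -0.94 ± 0.32 (SE, adjusted p = 0.0388) that stayed under the size threshold. Snai1 stood at 81.4 and 45.8 FPKM and overlapped MEF (0.23 ± 0.51 SE, adjusted p = 0.848).

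Day 16 against eXEN tests how cells on the way differed from the XEN line. Of the 10 genes, 7 passed (17.1% of all genes tested), all 7 as higher at day 16 (14% of all genes) and 0 as lower (3.17%). Of all called genes 81.5% were higher, and 53.2% after quantile normalization. Both the epithelial genes and the mesenchymal genes were on the higher side: Cdh1 (4.39 ± 0.70 SE, adjusted p = 0.000422), Epcam (4.69 ± 0.56) and Grhl2 (1.95 ± 0.49), and also Cdh2 (2.29 ± 0.52), Snai2 (2.15 ± 0.40), Twist1 (4.97 ± 0.46) and Twist2 (5.57 ± 0.35 SE, adjusted p = 1.22e-07). Snai1 (0.71 ± 0.51) and Zeb2 (0.44 ± 0.33) did not pass. Zeb1 stood lower at day 16 in both libraries and did not pass (-0.81 ± 0.32 SE, adjusted p = 0.0826), though it did with quantile normalization (-1.18) and median-of-ratios scaling (-1.04).

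The fibroblast markers summed to 216 and 409 FPKM at day 16 against 2.10 and 1.71 FPKM in eXEN, and their part in the higher mesenchymal genes was not tested. Grhl2 fell short of the threshold without day 16 replicate 1 (adjusted p = 0.139), without eXEN replicate 2 (0.0659) and under quantile normalization (0.098), and Cdh2 without day 16 replicate 2 (0.0596) and without eXEN replicate 2 (0.0664). A fit of only these 2 groups called 1 of the 10, Twist2.

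CeXEN against eXEN sets XEN cells derived in the stage 1 medium beside the established line. CeXEN cells held high Epcam and the highest Snai1 of the series with little Cdh1. In this comparison 3 of 10 genes passed (6.47% of all genes tested), all 3 as higher (4.01%) and 0 as lower (2.46%). That count was 0 in a fit of only these 2 groups and 1 without CeXEN replicate 2 or without eXEN replicate 2, and of all called genes 62% were higher, 49.8% after quantile normalization. Epcam stood at 167 and 133 FPKM in CeXEN against 9.18 and 1.18 FPKM in eXEN, without overlap (4.99 ± 0.56 SE, adjusted p = 9.82e-05). Snai1 stood at 336 and 277 FPKM against 81.4 and 45.8 FPKM (2.30 ± 0.51 SE, adjusted p = 0.0128). All other libraries lay below these 2 CeXEN values, the next being day 16 replicate 1 at 143 FPKM.

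Cdh1 stood at 0.134 FPKM in CeXEN replicate 1 and 6.26 FPKM in replicate 2, so the replicates lay on either side of eXEN (1.08 ± 0.70 SE, adjusted p = 0.426). Without CeXEN replicate 1 the change was 2.41 (adjusted p = 0.0202), and without replicate 2 it was -0.26. Grhl2 stood at 0.0147 and 0.547 FPKM, with quantifier bounds that reach 0 in both. CeXEN replicate 2 also held more fibroblast marker FPKM (41.7 against 1.78) and more trophoblast marker FPKM (17.6 against 2.45). Of the 10 fibroblast markers, 5 and 0 reached 1 FPKM in replicates 2 and 1, and Fap was at 0 in both. Cdh1 stood at 0.166 and 0.032 FPKM in the MEF libraries and at 128 and 138 FPKM in the ESC libraries. Pluripotency marker sums in CeXEN ranged from 22.5 to 51.9 FPKM. The part of other cell types in the Cdh1 difference was not tested. Twist1 was higher as well, at 5.17 and 4.48 FPKM against 1.40 and 0.283 FPKM (1.73 ± 0.46 SE, adjusted p = 0.0352), but not under quantile normalization (adjusted p = 0.122), without the filter on low values (0.0687), or without CeXEN replicate 1 (0.0901), CeXEN replicate 2 (0.128) or eXEN replicate 2 (0.264). Snai1 did not pass without CeXEN replicate 2 (adjusted p = 0.0575) or eXEN replicate 2 (0.126).

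eXEN against ESC separates the XEN and pluripotent states. Of 10 genes, 4 passed (28.1% of all genes tested), 2 as higher in eXEN (9.78%) and 2 as lower (18.4%). Of all called genes 34.7% were higher, and 52.4% after quantile normalization. Cdh1 stood at 128 and 138 FPKM in ESC, a change of -6.62 ± 0.70 in eXEN (SE, adjusted p = 6.91e-06), and Epcam at 46.9 and 52.3 FPKM (-3.42 ± 0.56 SE), which did not pass in a fit of only these 2 groups (adjusted p = 0.0672). Snai1 stood at 1.16 and 2.10 FPKM in ESC (4.58 ± 0.51 SE, adjusted p = 1.15e-05) and Zeb2 at 0.202 and 0.486 FPKM (2.33 ± 0.33). Zeb1 overlapped between the groups, at 4.28 and 7.52 FPKM in ESC (0.47 ± 0.32 SE, adjusted p = 0.268), as did Cdh2, Snai2 and Twist1. Grhl2 stood at 2.44 and 0.966 FPKM in ESC and did not pass (-1.16 ± 0.49 SE, adjusted p = 0.0771), whereas with a pseudocount of 0.1 it passed (-2.67).

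CiPSC against MEF compares the end product with the starting cells. All 10 genes passed (37% of all genes tested), 3 as higher (21.7%) and 7 as lower (15.3%), and all 10 did so in each alternative run. None of the 10 overlapped between the groups, which held for 59.1% of all genes. The share of called genes that were higher was 58.7%, and 46.8% after median-of-ratios scaling. Over the 7 lines Cdh1 ranged from 81.3 FPKM (C3) to 129.5 FPKM (G3) with a median of 108 FPKM, Epcam from 36.2 FPKM (C1) to 84.0 FPKM (N6) with a median of 45.8 FPKM, and Grhl2 from 1.14 FPKM (N4) to 3.33 FPKM (C3). The Epcam values lay at 36.2 to 45.8 FPKM in lines C1, C2, C3 and G1 and at 73.3 to 84.0 FPKM in G3, N4 and N6.

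Cdh2 ranged from 0.537 to 1.86 FPKM, Snai1 from 0.789 to 5.67 FPKM, Snai2 from 0.191 to 0.559 FPKM and Zeb2 from 0.202 to 1.36 FPKM. Twist1 ranged from 1.67 to 3.44 FPKM and Twist2 from 0 to 0.332 FPKM. Zeb1 ranged from 4.41 to 7.90 FPKM with a median of 5.63 FPKM, above the other factors in each line except C3, where Snai1 stood at 5.67 FPKM and Zeb1 at 5.18 FPKM, and had the smallest change of the 10 genes (-1.42 ± 0.25 SE, adjusted p = 0.0003). The largest changes were Cdh1 (6.59 ± 0.56 SE, adjusted p = 2.76e-07), Epcam (5.70 ± 0.45) and Twist2 (-5.62 ± 0.28 SE, adjusted p = 1.96e-09).

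CiPSC against day 16 spans the route from day 16 to its end, with day 20, day 26 and day 28 in between. At day 28 (1 library) Cdh2 (0.462 FPKM), Snai2 (0.555 FPKM), Zeb2 (1.40 FPKM), Twist2 (1.44 FPKM) and Twist1 (7.15 FPKM) were already low. Snai1 still stood at 107 FPKM in that library. Of the 10 genes 7 passed (29.9% of all genes tested), 1 as higher (13%) and 6 as lower (17%). Snai1 changed by -4.94 ± 0.41 (SE, adjusted p = 3.34e-07), Twist2 by -5.59 ± 0.28, Twist1 by -4.09 ± 0.37 and Zeb2 by -2.38 ± 0.26. Snai2 (-1.95 ± 0.32) and Cdh2 (-1.91 ± 0.42 SE, adjusted p = 0.00179) were also lower. Cdh1 was higher (1.89 ± 0.56 SE, adjusted p = 0.0122), but not without day 16 replicate 2 (0.74, adjusted p = 0.368) or with a pseudocount of 0.1 (adjusted p = 0.0744), and Cdh2 did not pass without that library either (-0.88, adjusted p = 0.0847). Epcam was at 57.2 ± 19.6 FPKM (SD, n = 7) in CiPSC and 126 ± 50.3 FPKM (SD, n = 2) at day 16, without overlap and just short of the threshold (-1.13 ± 0.45 SE, adjusted p = 0.0509), which it passed in 7 alternatives, among them the replicate block (adjusted p = 0.0334).

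CiPSC against ESC showed no called gene among the 10, with 0 also at an unadjusted p under 0.05 by limma, where 0.0601% of all genes were called, 0.036% as higher and 0.024% as lower. The 95% intervals of the differences ran from -1.54 to 0.85 for Cdh1, the widest, and from -0.55 to 0.54 for Zeb1, the narrowest, on the log2 scale, so smaller differences cannot be seen here. Cdh2 was the 1 gene whose groups did not overlap, where 14.1% of all genes did not: it stood at 0.377 and 0.469 FPKM in ESC and 0.537 to 1.86 FPKM in the CiPSC lines (0.54 ± 0.42 SE, adjusted p = 0.779).

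Epithelial gain and loss of EMT factors were then set against each other in each library, as the mean log2(FPKM + 1) of the 3 epithelial genes and of the 6 EMT factors. MEF stood at 0.14 and 0.02 for the epithelial genes and 4.90 and 5.40 for the EMT factors. Day 12 held both sets high, at 5.10 and 4.998. The epithelial mean was 5.48 at day 16 replicate 1, 3.80 at day 16 replicate 2, 5.43 at day 20, 5.15 at day 26 and 5.16 at day 28. The EMT mean was 4.03, 4.72, 3.19, 3.81 and 2.57 in the same libraries. All of the libraries of day 12 to day 28 except day 16 replicate 2 were thus above every ESC and CiPSC library in the epithelial mean, the highest of which was CiPSC line N6 at 5.09. The 3 genes did not agree in this. Epcam (143 to 191 FPKM against 36.2 to 84.0 FPKM) and Grhl2 were higher in these libraries than in ESC and CiPSC. Cdh1 was lower in each of them (43.7 to 72.4 FPKM against 81.3 to 138 FPKM).

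CeXEN stood at 2.53 and 3.52 for the epithelial genes and 2.85 and 2.80 for the EMT factors, and eXEN at 1.44 and 0.49 against 2.37 and 2.03. ESC stood at 4.79 and 4.61 against 0.93 and 1.15, and the CiPSC lines at 4.60 to 5.09 against 1.08 to 1.58. In eXEN the epithelial mean was therefore low, and the EMT mean lay below MEF but above every ESC and CiPSC library. Pluripotent cells were high in the first mean and low in the second.

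Counted gene by gene, all 3 epithelial genes were above both MEF libraries in each library of day 12 to day 28, ESC and CiPSC, 15 libraries in all, and 16.5% of all genes tested were so in all 15. All 6 EMT factors were below both MEF libraries in each of the 9 ESC and CiPSC libraries, as were 20.4% of all genes in all 9. They were so in eXEN replicate 2 as well (39.3% of all genes). Snai1 was only just so there, at 45.80 FPKM against 45.87 FPKM in MEF replicate 1, and the quantifier's bounds overlapped. All 3 epithelial genes were above both MEF libraries in CeXEN replicate 2 (49.1%) and eXEN replicate 1 (42.8%). Of these, Cdh1 (0.607 FPKM) and Grhl2 (0.231 FPKM) were near 0 in eXEN replicate 1, as was Grhl2 (0.547 FPKM) in CeXEN replicate 2. The lower bounds of both Grhl2 values were 0. Snai1 was the factor that kept the count at 5 of 6 in both CeXEN libraries, eXEN replicate 1, day 16 replicate 1, day 20 and day 28, since it was above both MEF libraries in each. The share of all genes below both MEF libraries was 39% and 29.2% in CeXEN, 33.6% in eXEN replicate 1, 28.2% in day 16 replicate 1, 28.1% at day 20 and 28.9% at day 28. At day 12, 4 of 6 factors were below both MEF libraries (22.4% of all genes) and both Twist genes above (50.1%). In day 16 replicate 2, Snai1 and both Twist genes were above both MEF libraries, and Snai2, Zeb1 and Zeb2 were below. At day 26 Snai1 was above, Twist1 lay between the MEF values, and the other factors were below.

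**Figure D3:**
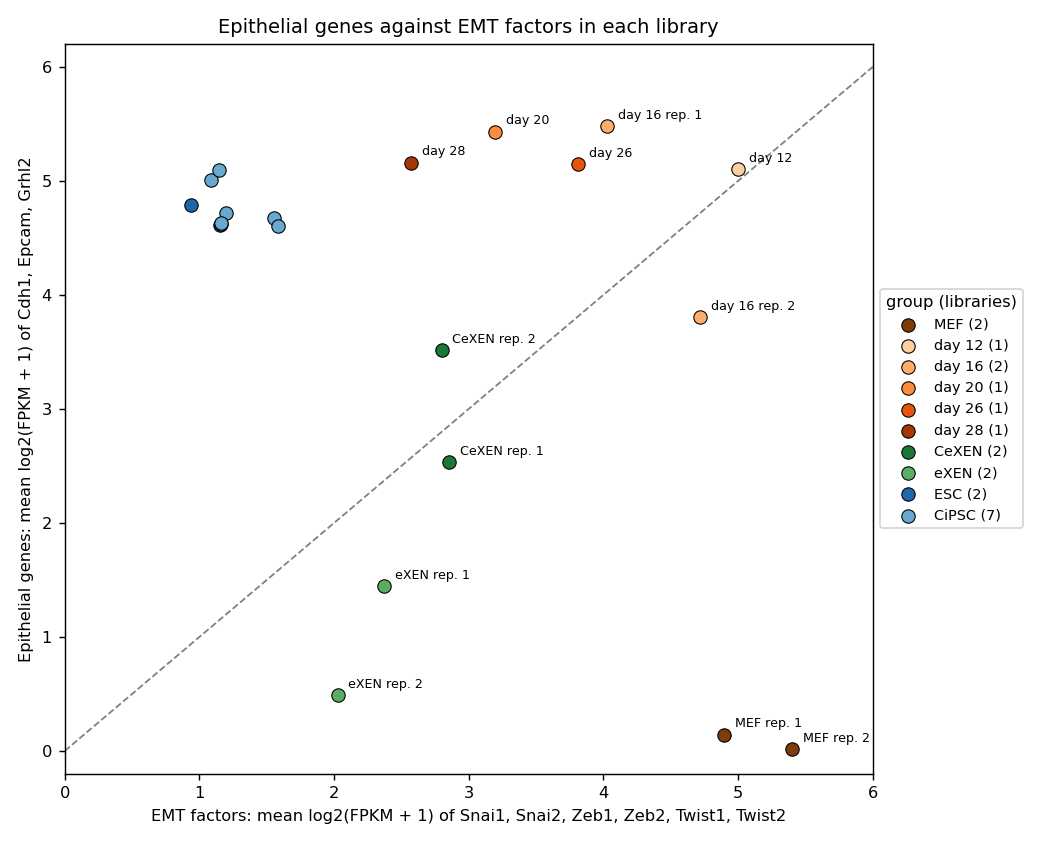
Mean log2(FPKM + 1) of Cdh1, Epcam and Grhl2 (vertical axis) against that of the 6 EMT factors (horizontal axis); each point is a library and the dashed line marks equal means. MEF lies at the lower right, ESC and CiPSC at the upper left, and day 12 near the line with both means at about 5. eXEN lies low on the vertical axis and, on the horizontal axis, between MEF and the ESC and CiPSC libraries.

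The cadherins can also be ordered by level. For Cdh1 the order of group means was ESC (133 ± 7.20 FPKM, SD, n = 2), CiPSC (106 ± 16.3 FPKM, SD, n = 7), day 20, day 12, day 28, day 26, day 16, CeXEN, eXEN and MEF. ESC and CiPSC overlapped, day 16 (11.8 to 62.5 FPKM) spanned day 12, day 26 and day 28 but not day 20, and CeXEN, eXEN and MEF overlapped in turn. For Epcam the order was day 20, day 28, day 26, CeXEN (149.5 ± 24.1 FPKM, SD, n = 2), day 12, day 16, CiPSC, ESC, eXEN and MEF, with day 26, CeXEN, day 12 and day 16 overlapping in turn. Epcam thus ranked CeXEN with the cells on the way and Cdh1 ranked CeXEN with eXEN and MEF. The sum of Cdh1 and Cdh2 was 0.388 and 6.74 FPKM in CeXEN and 1.69 and 0.347 FPKM in eXEN, against 26.5 to 139 FPKM in all other libraries.

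Lists of other genes of the same pathways, chosen with earlier results of these data known, were counted in the same fits. Of all genes 13.3% were called higher and 7.41% lower at day 16 against MEF, 8.85% higher and 2246 of 16650 lower in eXEN, and 21.7% higher and 15.3% lower in CiPSC. Among 10 tested epithelial regulators, 9 rose and 0 fell at day 16 against MEF (list median 3.20, all genes 0.22 on the log2 scale), 4 and 0 in eXEN against MEF (0.38 and 0.00) and 8 and 0 in CiPSC against MEF (1.89 and 0.25). The ETS factor Elf3 rose by 5.78 at day 16 and 4.19 in eXEN, and the epithelial splicing regulator Esrp1, listed at 0 in both MEF libraries, stood at 12.6 ± 4.56 FPKM (SD, n = 2) at day 16. Ovol2, a zinc-finger repressor of Zeb1, was also listed at 0 in MEF and stood at 13.3 ± 9.04 FPKM at day 16. Against eXEN, Esrp1 (3.70) and Ovol2 (3.17) were higher at day 16.

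Of 24 epithelial junction and polarity genes, 20 rose and 0 fell at day 16 (list median 2.39), 8 rose in eXEN (0.47) and 16 in CiPSC (2.26), each against MEF, where 13.3%, 8.85% and 21.7% of all genes were called higher. The tricellular junction protein Lsr rose by 5.88 at day 16 and 5.32 in eXEN, and the polarity protein Pard6b by 3.98 and 4.25. The polarity protein Crb3 rose by 4.51 and the membrane protease St14 by 4.48 at day 16, and both were higher at day 16 than in eXEN (4.50 and 4.46). eXEN cells thus held Lsr and Pard6b with almost no Cdh1. Of 8 Epcam partners and relatives, 6 rose and 1 fell at day 16 (list median 2.55), 1 and 1 in eXEN (0.02) and 4 and 1 in CiPSC (0.87). The tetraspanin Tspan8 (5.14) and the claudin Cldn7 (4.07) rose at day 16, and in CeXEN the protease inhibitor Spint2 was higher than in eXEN (4.04), at 36.0 ± 39.0 FPKM (SD, n = 2).

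Of 7 genes of the catenin complex, 1 rose and 3 fell at day 16 (list median -0.79), 0 and 2 in eXEN (-0.46) and 1 and 2 in CiPSC (0.22). The actin linker vinculin (Vcl) fell by 3.06 at day 16 and Ctnnd1, which binds cadherin tails, by 1.09, from 85.3 ± 5.92 to 39.5 ± 3.80 FPKM (SD, n = 2 each). Of 11 other EMT-linked transcription factors, 0 rose and 4 fell at day 16 (-0.74), 0 and 5 in eXEN (-1.60) and 0 and 8 in CiPSC (-2.20), among them the homeobox factor Prrx1 (-2.21, -6.79 and -6.35). Of 15 mesenchymal effector genes, 12 fell at day 16 (-2.70), 14 in eXEN (-7.53) and 15 in CiPSC (-4.67), and 0 rose in any of these. The actin Acta2 (-4.91, -10.73 and -6.62) was among those with the largest decreases.

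TGF beta is the best-known signal that induces EMT. Its list of 12 ligands, receptors and Smads included Smad6, Smad7 and Skil, which restrain the signal, so its counts do not measure the signal's strength. Of these 12 genes, 0 rose and 4 fell at day 16 (list median -0.54), 1 and 6 in eXEN (-1.25) and 0 and 7 in CiPSC (-1.62). In the same comparisons 7.41% of all genes, 2246 of 16650 genes and 15.3% of all genes were called lower. The ligand Tgfb3 fell by 4.43, 6.30 and 5.42 on the log2 scale, from 93.2 ± 27.8 FPKM (SD, n = 2) in MEF, and Tgfb1 by 2.85, 2.47 and 3.71. These 3 comparisons share the MEF libraries, so their counts are not independent of each other.

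**Figure D4:**
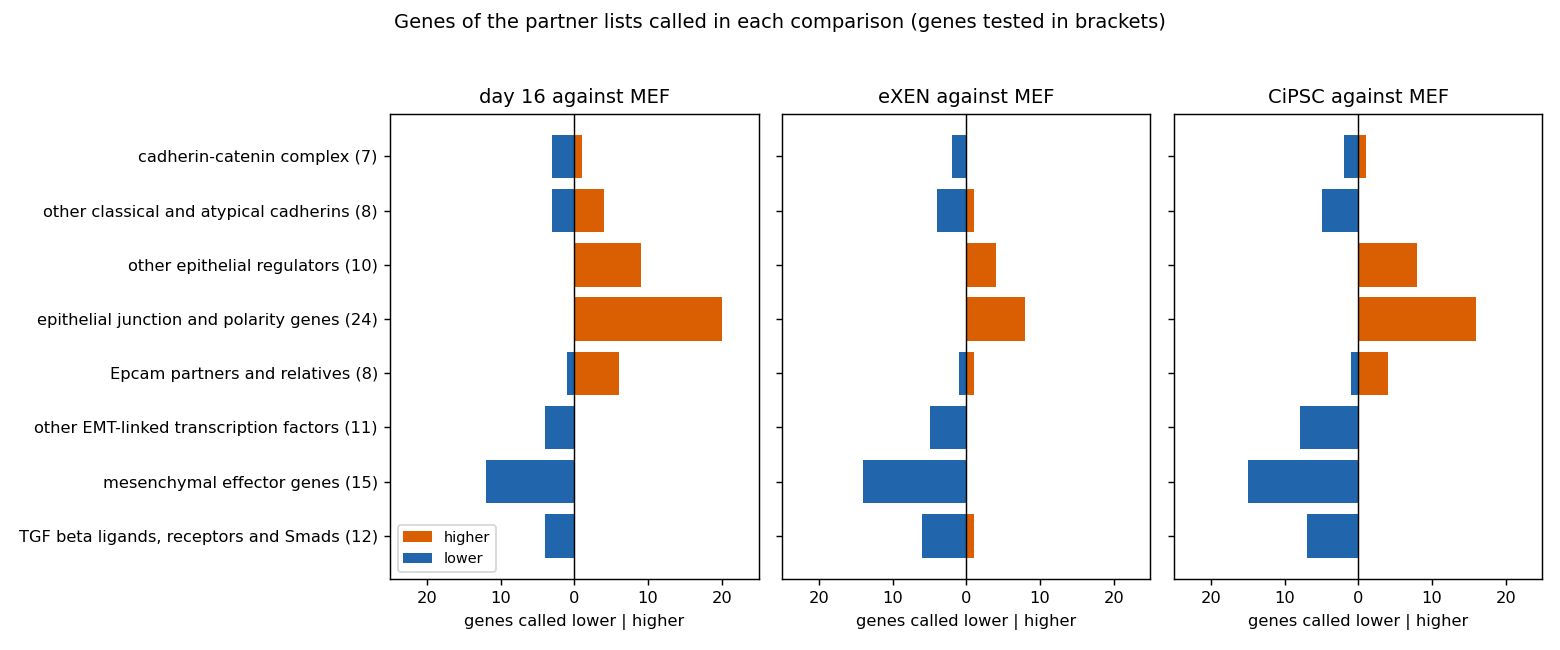
Number of genes of each pathway list (vertical axis, genes tested in brackets) called higher (right) or lower (left) in 3 comparisons with MEF. At day 16, 20 of 24 junction and polarity genes were higher and 12 of 15 mesenchymal effector genes lower.

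The genes whose group means followed the members most closely were found by Pearson's r over the 10 group means, as a description over points that share libraries. For Cdh1 they were Pycard (r = 0.987), the protease inhibitor Spint1 (0.985), alkaline phosphatase Alpl (0.983), Wfdc2 (0.981) and Tmem8 (0.981). For Epcam they were Ralgps2 (0.98), Sox13 (0.966), B4galnt3 (0.964), the claudin Cldn6 (0.962) and B4galnt4 (0.958). For Grhl2 they were Crb3 (0.988), Kdf1 (0.985), Plek2 (0.983), Chga (0.978) and the epithelial adaptor subunit Ap1m2 (0.975). The mean level of Alpl was 146 FPKM in ESC against 0.285 FPKM in eXEN, and that of Cldn6 was 158 FPKM in CeXEN against 1.40 FPKM in eXEN.

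For Snai2 the closest were Dpt (0.994), Casp12 (0.993), Clec2d (0.992), Antxr2 (0.992) and Pcdh9 (0.991), each highest in MEF. For Zeb1 they were Tubb6 (0.935), Fam210a (0.923), Dpy19l3 (0.883), Grn (0.883) and Btbd3 (0.878). The Zeb1 likeness was the loosest of the 5 genes: over the 21 libraries Fam210a ranked 355th at r = 0.575, whereas all 5 genes closest to Cdh1 were within the first 5.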

How the data were processed

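RNA of 21 mouse libraries in 10 groups was sequenced. The deposited FPKM values, 1 file per library, come from TopHat and Cufflinks runs of the authors on mm10, per the submitters' processing notes, and versions and the annotation are not given in the sources used here. The authors' files also hold a lower and an upper bound per FPKM value. FPKM of loci with the same gene ID were added, over 43436 IDs present in every file. The 16650 genes that reached 1 FPKM in 2 or more libraries were tested as log2(FPKM + 1) with limma 3.58.1 (R 4.3.3), its prior variance following the mean level. All groups entered 1 fit, which left 11 residual degrees of freedom, and the trend on the day used the 6 libraries of day 12 to day 28. Calls needed a Benjamini-Hochberg adjusted p below 0.05 and a log2 change of 1 or more in size. The model was tested on simulated data.

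The 10 genes, marker lists and pathway lists were chosen with earlier results of these data known. The text names the 10 genes, up to 4 called genes with the largest change per pathway list and comparison, of which some are given, and the 5 genes most like Cdh1, Epcam, Grhl2, Zeb1 and Snai2 among genes with a group mean of at least 5 FPKM. Gene positions are counted from 1 and match GENCODE M21 within 23 bases. Alternatives covered the pseudocount, the filter, scaling, the prior, the libraries in the fit, a replicate block and each library left out; the trend in the 4 time course libraries with LOWDATA rows was added after seeing the data. Python 3.11.15, numpy 2.4.6, pandas 2.3.3 and matplotlib 3.10.9 were used.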

Additional observations from a re-analysis of the deposited data

Results flagged for a closer look

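Zeb1 in CiPSC line G1 stood at 7.90 FPKM, apart from the other 6 lines, which lay between 4.41 and 5.91 FPKM. The gap to the next line was 0.571 of the range of the 7 lines. The 10 genes and the means of the epithelial genes and of the EMT factors were examined in this way in the CiPSC lines, 12 series in all, and about 1 series in 20 is set apart by chance.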

How the results depend on the processing

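Of 1250 alternative values for the changes of the 10 genes, 1157 kept their direction and their side of the threshold, 37 lost the call, 20 gained it and 36 changed sign, and 0 called genes changed sign. With only the compared groups in the fit, the genes called went from 7 to 0 in day 16 against MEF, from 7 to 1 in day 16 against eXEN and from 3 to 0 in CeXEN against eXEN; these fits hold fewer samples. Leaving out a library, CeXEN against eXEN called 1 to 4. Leaving out a library gave log2 changes, for genes not called, of -0.68 to 0.86 for Twist1 and -0.53 to 0.47 for Twist2 in day 16 against MEF, -0.18 to 0.63 for Snai1 in eXEN against MEF, and -0.25 to 0.55 for Cdh2 in eXEN against ESC. In CeXEN against eXEN the ranges were -0.26 to 2.41 for Cdh1, -0.20 to 0.41 for Grhl2, -0.61 to 0.19 for Cdh2, -0.19 to 0.25 for Zeb1 and -0.0037 to 1.07 for Twist2. They were -1.33 to 0.55 for Grhl2 and -0.065 to 0.73 for Zeb1 in CiPSC against day 16, and -0.0080 to 0.80 for Grhl2, -0.051 to 0.059 for Snai2 and -0.36 to 0.34 for Zeb1 in CiPSC against ESC. In the trend they were -0.38 to 0.76 for Cdh1, -0.12 to 0.62 for Grhl2 and -1.52 to 0.20 for Zeb1, and in the 4 libraries with LOWDATA rows alone, an alternative chosen after seeing the data, -0.23 for Cdh1 and -0.065 for Grhl2. Quantile normalization gave -0.11 for Twist1 in day 16 against MEF, 0.39 for Snai2 and 0.24 for Twist1 in eXEN against ESC, and -0.14 for Grhl2 and -0.078 for Zeb1 in CeXEN against eXEN. Median-of-ratios scaling gave -0.24 for Twist1 in day 16 against MEF and -0.049 for Zeb1 in CeXEN against eXEN, and a pseudocount of 0.1 gave -0.015 for Snai2 in CiPSC against ESC. The cause was not tested. Quantile normalization moved the median of all genes from 0.252 to 0.072 in CiPSC against MEF, from 0.001 to 0.117 in eXEN against MEF, from -0.258 to 0.020 in eXEN against ESC and from 0.235 to -0.073 in day 16 against eXEN. The replicate block called 8 of 10 genes in CiPSC against day 16 (7 without it) and changed no other call; same-numbered samples shared only a number, their deviations correlating at -0.116 to 0.051 over 10 pairs of groups. Day 12, day 20, day 26 and day 28 had 1 library each, and read depth is unknown.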

Other observations

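Other cadherins were also rearranged between the states. The mesenchymal cadherin Cdh11 fell from 235 ± 134 FPKM (SD, n = 2) in MEF to 47.2 ± 25.8 FPKM (SD, n = 2) at day 16 (-2.28 on the log2 scale) and was near 0 in eXEN (-7.53 against MEF). P-cadherin (Cdh3) fell by 3.61 at day 16 and by 4.74 in eXEN. Cdh13, a cadherin anchored by a lipid, rose by 2.44 at day 16, and Cdh6 was higher in eXEN than in ESC (4.12) and MEF (2.99). The endothelial cadherin Cdh5 was higher at day 16 than in MEF (1.96) and in CeXEN than in eXEN (2.27). Of the other 5 endothelial markers, Emcn and Cldn5 were listed at 0 in both CeXEN and both eXEN libraries, Tek stood at 1.90 and 6.60 FPKM in CeXEN and 2.14 and 26.8 FPKM in eXEN, and Pecam1 and Kdr were below 1 FPKM in all of these libraries. Of 8 tested cadherins beside Cdh1 and Cdh2, 4 rose and 3 fell at day 16 against MEF, where 13.3% of all genes were called higher and 7.41% lower.

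In day 12, all 6 endothelial markers stood at 1 FPKM or more (sum 34.1 FPKM), against 1 and 0 of 6 in MEF replicates 1 and 2. The sum was 42.4 and 57.7 FPKM in ESC, with 2 markers at 1 FPKM or more, and 26.0 to 37.6 FPKM in CiPSC. Other marker sums were also higher at day 12 than in MEF: trophoblast 70.9 FPKM (MEF 0.944 to 4.74 FPKM) and keratinocyte 9.37 FPKM (MEF 0.382 to 0.904 FPKM).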
